A study of Mus musculus with 2 samples.

Results

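The genes described here are the ligands and receptors of the transforming growth factor beta (TGF-beta) and activin branch: Tgfb1, Tgfb2, Tgfb3, Inhba, Inhbb, Tgfbr1, Tgfbr2 and Tgfbr3. They were chosen by name and not by a rule on their values, though with earlier results of these data known. They make up 8 of the 31053 genes in the count tables. All 8 were present in both tables, and their levels are given by cell class and by library. TGF-beta ligands are secreted in a latent form and, once released, bind a type II receptor, Tgfbr2, which then activates the type I receptor Tgfbr1 and through it the Smad proteins. Activins are dimers of the beta subunits encoded by Inhba and Inhbb and signal through their own receptors to the same Smads. In the gut these ligands are known for their part in fibroblast matrix production, immune restraint and epithelial growth control.

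The cells came from the intestinal lamina propria of C57BL/6 mice aged 11 weeks. In both groups the mice carried the ApcMin/+ allele, a germline mutation of Apc that gives rise to intestinal adenomas. The ApcMin library came from ApcMin/+;Lef1 +/+ mice, and the VApcMinL library from ApcMin/+;Lef1 fl/fl; Villin-Cre mice, in which Cre under the Villin promoter deletes Lef1 in the intestinal epithelium, so the cells described here are not those that the Cre targets. Dissociated cells that were negative for DAPI, Ter119, Epcam and CD45 were sorted and run on droplet single-cell RNA sequencing, which counts unique molecular identifiers (UMIs), 1 for each captured transcript. There was 1 library per genotype, and the number of mice pooled in each was not given in the sources used here. No test between the genotypes was therefore possible, and a difference between the libraries cannot be told apart from a difference between mice or dissections.

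The libraries held 93203061 and 101609269 UMIs for ApcMin and VApcMinL. Barcodes with at least 3000 UMIs and at most 20% mitochondrial UMIs were kept, which gave 6599 and 6569 cells with a median of 10849 and 9111 UMIs, and 18 barcodes occurred in both. Clusters named by marker genes placed 51.5% and 57.6% of the cells among stromal classes, 2.46% and 10.0% among endothelial classes and 23.0% and 18.3% among immune classes. The immune share was large for a CD45 negative sort, and the CD45 gene Ptprc was detected in 95.6% and 94.4% of B-like cells. Erythroid-like cells made up 20.7% and 5.56% of the cells and epithelial-like cells 0.743% and 5.27%, so the cells that passed the sort differed between the libraries. Lef1 itself had 22 UMIs in 49 epithelial-like cells of ApcMin (7.56 CPM, defined in the next paragraph, interval 4.74 to 11.5) and 29 UMIs in 346 such cells of VApcMinL (1.94 CPM, interval 1.30 to 2.79). Lef1 was detected in 8.16% and 2.89% of these cells, so both values rested on few cells, whose spread the intervals do not cover. UMIs at the 3′ end do not show whether the floxed exons are gone.

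Levels are given as counts per 1000000 UMIs (CPM) summed over the cells of a class, with the exact 95% Poisson interval, and library differences as the ratio of VApcMinL to ApcMin with the exact 95% interval. All intervals cover counting error only. Free RNA was read from empty droplets, where Tgfb1 stood at 69.7 and 39.4 CPM, Tgfb2 at 20.5 and 30.1, Tgfb3 at 16.3 and 13.8, Inhba at 3.6 and 10.3, Inhbb at 1.66 and 5.62, Tgfbr1 at 36.8 and 27.7, Tgfbr2 at 106 and 103 and Tgfbr3 at 85.8 and 110 CPM in ApcMin and VApcMinL. Erythroid-like cells, which should lack most of these genes, held between 0 and 2.15 CPM of each member in ApcMin and between 0 and 5.51 CPM in VApcMinL. Free RNA was only a part of a cell's UMIs, estimated from immunoglobulin UMIs at 3.99% and 3.82% in fibroblast-like cells. A class under the empty droplets was therefore not shown to lack the gene.

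**Figure D1:**
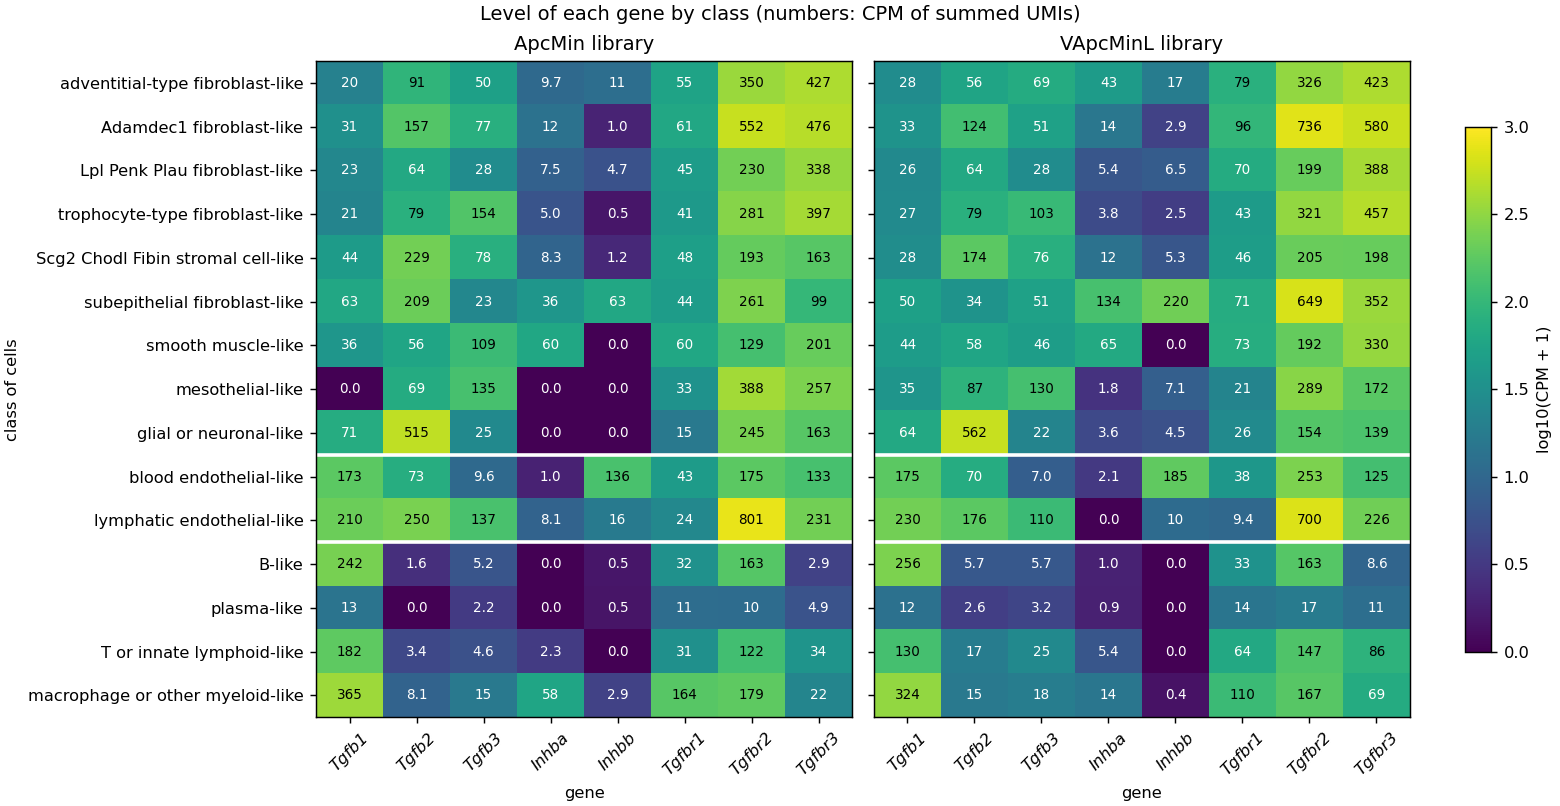
Level of the 8 genes (columns) in 15 classes of cells (lines, in the order stromal and glial, endothelial, immune) of the ApcMin and VApcMinL libraries. The numbers are CPM of summed UMIs and the colour is log10(CPM + 1). Tgfb1 is highest in macrophage or other myeloid-like cells, at 365 and 324 CPM, whereas Tgfbr3 is high in the fibroblast-like classes and lowest in B-like and plasma-like cells.

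Tgfb1, the TGF-beta ligand best known from immune cells, was an immune and endothelial transcript in both libraries. Macrophage or other myeloid-like cells led with 365 CPM (346 to 385) in ApcMin and 324 CPM (302 to 348) in VApcMinL. B-like cells followed with 242 CPM (227 to 258) and 256 CPM (235 to 279). Lymphatic endothelial-like cells came next with 210 CPM (166 to 262) and 230 CPM (205 to 257), and their intervals overlapped those of B-like cells. Blood endothelial-like cells held 173 CPM (149 to 200) and 175 CPM (161 to 190), and T or innate lymphoid-like cells 182 CPM (154 to 212) and 130 CPM (105 to 158). The last pair of classes was not separated in ApcMin, where their intervals overlapped, and was separated in VApcMinL. Fibroblast-like cells as a whole held 24.0 CPM (22.6 to 25.5) and 29.2 CPM (27.6 to 30.9). This was below the empty droplets of both libraries but above the 1.20 and 3.44 CPM of erythroid-like cells. Plasma-like cells, at 13.4 and 12.2 CPM, were lower than fibroblast-like cells and did not share the level of B-like cells. The 8 plasma markers, Jchain and Igha among them, summed to 249900 and 277200 CPM in plasma-like cells, which lowers the CPM of all other genes. The part of this in the Tgfb1 level was not tested. After thinning every cell to 3000 UMIs, Tgfb1 was detected in 58.3% and 53.2% of macrophage or other myeloid-like cells, in 6.48% and 7.38% of fibroblast-like cells and in 0.220% and 0.822% of erythroid-like cells, and at full depth the same shares were 84.5% and 72.3%, 21.2% and 21.3%, and 0.952% and 1.37%.

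Tgfb2 had a different distribution, with glial or neuronal-like cells far ahead. They held 515 CPM (419 to 626) in 28 ApcMin cells and 562 CPM (519 to 608) in 172 VApcMinL cells, and after thinning Tgfb2 was detected in 75.0% and 69.8% of them. The next classes were lymphatic endothelial-like cells, at 250 CPM (202 to 306) and 176 CPM (154 to 199), and the stromal cluster led by Scg2, Chodl and Fibin, at 229 CPM (210 to 249) and 174 CPM (154 to 195). These were not separated from each other in either library. Among the large fibroblast-like clusters, Tgfb2 was highest in the Adamdec1 cluster, at 157 CPM (147 to 167) and 124 CPM (117 to 131), and it was lowest in the cluster of Lpl, Penk and Plau in ApcMin, at 63.6 CPM, and in the adventitial-type cluster, led by Pi16, in VApcMinL, at 55.9 CPM. Blood endothelial-like cells held 73.0 and 70.2 CPM, well under their lymphatic counterpart. In B-like cells there were 6 and 12 UMIs in all, and in plasma-like cells 0 and 9, where 3 UMIs correspond to 0.732 and 0.873 CPM. The transcript model of Tgfb2 overlaps an exon of Gm29491 on the other strand.

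Tgfb3 was mainly a stromal and lymphatic transcript. Trophocyte-type fibroblast-like cells, the Grem1-expressing cells that support the crypt base, held 154 CPM (145 to 163) and 103 CPM (96.3 to 110). Lymphatic endothelial-like cells held 137 CPM (102.1 to 180) and 110 CPM (93.5 to 129), and mesothelial-like cells, which line the outer wall, 135 CPM (92.7 to 189) in 7 cells and 129.5 CPM (101.5 to 163) in 34 cells. The intervals of these leading classes overlapped in both libraries, so no order among them was resolved. Blood endothelial-like cells stood apart from lymphatic ones with 9.61 and 6.96 CPM, under the empty droplets. B-like cells were at 5.20 and 5.74 CPM and plasma-like cells at 2.20 and 3.20 CPM, and the highest immune value was 25.4 CPM from 19 UMIs, in T or innate lymphoid-like cells of VApcMinL.

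Inhba, which encodes the activin beta A subunit, was rare and unevenly spread. Smooth muscle-like cells held 60.4 CPM (33.8 to 99.5, 15 UMIs) and 65.2 CPM (45.2 to 91.2, 34 UMIs). Subepithelial fibroblast-like cells, a cluster of 30 and 74 cells led by Bmp5 and Bmp7, held 36.5 CPM (20.0 to 61.2, 14 UMIs) and 134 CPM (109 to 164, 100 UMIs). Of the markers behind this name, Itgbl1 had 0 UMIs in either library and Wif1 was found in only 3 and 17 cells. The other markers of the list were detected in both libraries. Adventitial-type fibroblast-like cells, led by Pi16, held 9.69 CPM (8.35 to 11.2) and 43.4 CPM (39.9 to 47.2). The Pi16 cluster was far lower in ApcMin than in VApcMinL. The levels of the smaller classes rested on few cells: without the 3 highest cells smooth muscle-like cells held 9.15 and 30.9 CPM and subepithelial fibroblast-like cells 2.90 and 62.9 CPM. In smooth muscle-like cells 1 cell held 8 of 15 UMIs in ApcMin, and 1 cell, which had a high doublet score, held 12 of 34 in VApcMinL. The smooth muscle-like cluster was a mixture: of its cells in ApcMin, 14 had more smooth muscle than pericyte markers and held all 15 Inhba UMIs, and the 26 with pericyte markers held 0. In VApcMinL the corresponding 34 and 30 cells held 17 and 5 UMIs, the latter from 1 cell, and the remaining 12 UMIs lay in cells outside both sets. Lymphoid and endothelial classes held at most 7 UMIs of Inhba in either library.

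Inhbb, the activin beta B subunit, marked blood vessels. Blood endothelial-like cells held 136 CPM (114 to 160) and 185 CPM (171 to 200), with a UMI after thinning in 22.6% and 32.6% of cells. Lymphatic endothelial-like cells held 16.1 CPM (5.92 to 35.1) and 10.2 CPM (5.55 to 17.1), so the endothelial classes differed by more than counting error in both libraries. Subepithelial fibroblast-like cells, at 62.6 CPM (40.1 to 93.1) and 220 CPM (188 to 257), were below blood endothelial-like cells in ApcMin and were not separated from them in VApcMinL. Adventitial-type fibroblast-like cells held 11.1 and 17.3 CPM, and the Adamdec1 cluster 0.964 and 2.89 CPM. In smooth muscle-like and T or innate lymphoid-like cells no UMI was found in either library, which allows up to 12.1 and 5.76 CPM, and 3.43 and 4.01 CPM, at 3 UMIs. Plasma-like cells held 2 and 0 UMIs and B-like cells 2 and 0 UMIs.

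Among the receptors, Tgfbr1, the type I kinase, was most abundant in macrophage or other myeloid-like cells, at 164 CPM (151 to 177) and 110 CPM (96.8 to 124). The Adamdec1 fibroblast-like cluster followed with 61.2 CPM (55.2 to 67.7) in ApcMin and 95.6 CPM in VApcMinL (89.9 to 101.6), and its interval overlapped that of the myeloid class in VApcMinL. Smooth muscle-like cells, at 60.4 and 72.9 CPM from 15 and 38 UMIs, were not separated from the Adamdec1 cluster. Plasma-like cells held 10.7 and 13.7 CPM, below the empty droplets, and lymphatic endothelial-like cells 24.2 and 9.43 CPM from 9 and 13 UMIs. Lymphatic endothelial-like cells were thus among the lowest classes for Tgfbr1 and, as given next, among the highest for its partner Tgfbr2.

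Tgfbr2, the type II kinase that binds the ligand, was present in almost every class. Lymphatic endothelial-like cells held 801 CPM (713 to 898) and 700 CPM (656 to 745), and the Adamdec1 cluster 552 CPM (534 to 571) and 736 CPM (720 to 752), so lymphatic cells were ahead in ApcMin and the pair was not separated in VApcMinL. The other large fibroblast-like clusters lay between 229.5 and 350 CPM in ApcMin and between 199 and 326 CPM in VApcMinL. Macrophage or other myeloid-like cells held 179 and 167 CPM and B-like cells 163 and 163 CPM. Plasma-like cells were the exception, with 10.5 CPM (7.60 to 14.1) and 16.9 CPM (12.8 to 21.8), far under the empty droplets. Tgfbr2 and Tgfb1 therefore shared a large contrast between B-like and plasma-like cells. The plasma marker RNA given for Tgfb1 also lowers Tgfbr2 in plasma-like cells, by a part that was not tested. After thinning, Tgfbr2 was detected in 39.8% and 42.1% of B-like cells and in 2.75% and 1.48% of plasma-like cells.

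Tgfbr3, also called betaglycan, is a co-receptor that presents TGF-beta, above all Tgfb2, to the kinases. It was mainly a stromal transcript, and fibroblast-like cells held 392 CPM (386 to 398) and 456 CPM (449 to 462), and the Adamdec1 cluster led at 476 CPM (459 to 494) and 580 CPM (566 to 594). Lymphatic endothelial-like cells held 231 and 226 CPM and blood endothelial-like cells 133 and 125 CPM. B-like cells held 2.86 and 8.61 CPM and plasma-like cells 4.88 and 11.1 CPM, against 2.15 and 3.44 CPM in erythroid-like cells. All these values were under the empty droplets, and the part of free RNA in them was not tested. Tgfbr2, by contrast, was present in B-like cells. After thinning, the kinases Tgfbr1 and Tgfbr2 were both seen in 21.5% of Adamdec1 fibroblast-like cells of VApcMinL, against 20.5% if they were independent, and in 12% against 11.1% in ApcMin. In blood endothelial-like cells the share was 2.89% (14 of 484 cells) against 5.05% in VApcMinL. In ApcMin it was 4.84% (6 of 124 cells) against 4.49%, which is too few cells to show a direction.

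The genes with the most similar pattern over the 15 classes in both libraries (30 points of log2(CPM + 10)) were, by Pearson's r, Lyn (0.909), Slfn2 (0.878) and Cd38 (0.877) for Tgfb1, and Plscr4 (0.905), Tax1bp3 (0.904) and Tom1l2 (0.903) for Tgfb2. For Tgfb3 they included Adamtsl1 (0.877) and Arhgap10 (0.850). For Inhba they were Slc8a1 (0.846), Ednra (0.783) and Adap2os (0.764), and for Inhbb Efnb2 (0.837), Cdh13 (0.834) and Abcc4 (0.819). Tgfbr1 was most like Vhl (0.850), Sowahc (0.817) and Eif4e (0.765), Tgfbr2 most like Cops2 (0.907), Pkn2 (0.889) and C330007P06Rik (0.882), and Tgfbr3 most like Nfia (0.955), Thra (0.949) and Pam (0.947). Within the 8 genes, the highest values were those of Tgfbr3 with Tgfb3 (0.760), Tgfbr3 with Tgfbr2 (0.714) and Tgfbr3 with Tgfb2 (0.686), and the lowest was that of Tgfbr3 with Tgfb1 (-0.423). The points share libraries and, within each, depth and free RNA, and these values are descriptions.

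The comparison sets lamina propria cells of the genotypes side by side. With 1 library each, it cannot show an effect of the Lef1 deletion. In fibroblast-like cells both activin subunits were higher in VApcMinL, and the TGF-beta ligands stayed within 1.5-fold when UMIs were summed over all clusters. Inhba held 8.93 CPM (8.09 to 9.83) in ApcMin and 21.9 CPM (20.5 to 23.4) in VApcMinL, with a ratio of 2.45 (2.18 to 2.76). Inhbb held 6.43 CPM (5.73 to 7.21) in ApcMin and 11.9 CPM (10.8 to 13) in VApcMinL, with a ratio of 1.85 (1.60 to 2.14). These were 2 of the 8 members past 1.5-fold in fibroblast-like cells, beside 12.7% of the 12919 genes with at least 100 UMIs. Tgfbr1 came close, at 50.5 and 73.2 CPM with a ratio of 1.45 (1.37 to 1.53). Tgfb1 had a ratio of 1.22 (1.12 to 1.32), Tgfb2 0.846 (0.810 to 0.884), Tgfb3 0.959 (0.910 to 1.01), Tgfbr2 1.26 (1.23 to 1.29) and Tgfbr3 1.16 (1.14 to 1.19). The clusters behind these sums differed, since the largest was the Pi16 cluster in ApcMin (1250 of 3351 cells) and the Adamdec1 cluster in VApcMinL (1137 of 3685 cells). With the 6 clusters weighted equally, the ratio was 2.69 for Inhba and 3.15 for Inhbb, that of Tgfb1 turned to 0.950, and that of Tgfb2 was 0.641, past 1.5-fold.

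**Figure D2:**
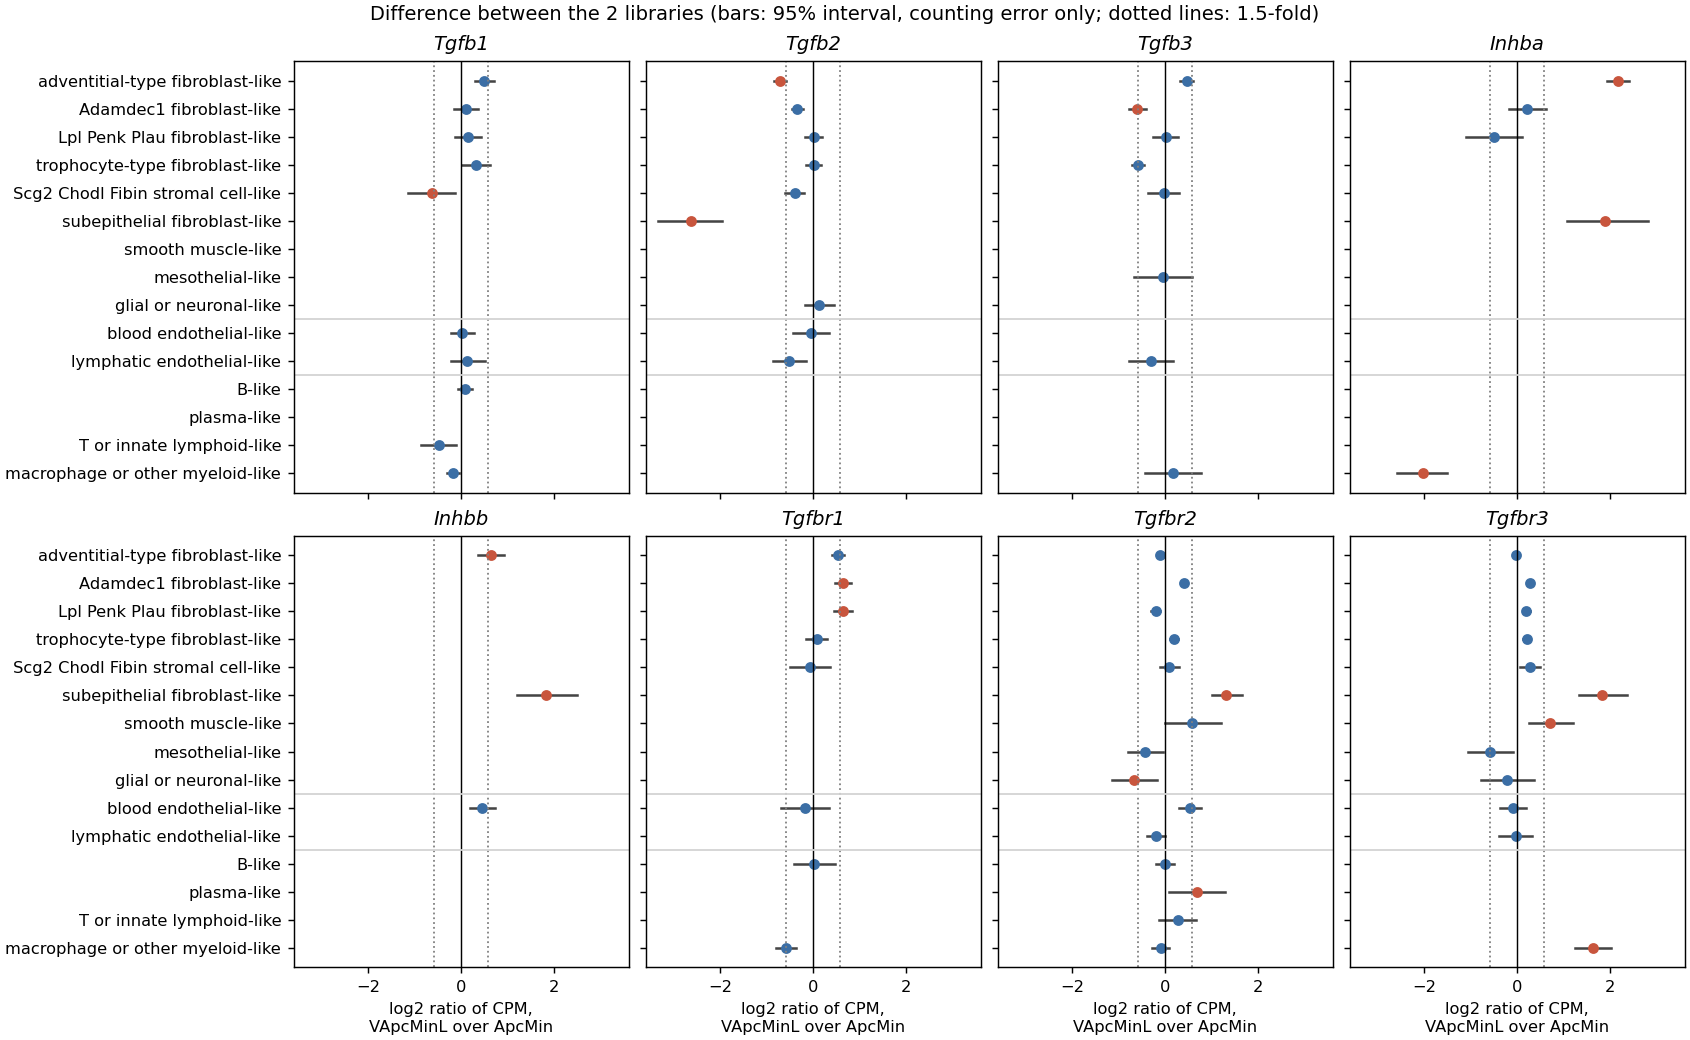
Log2 ratio of CPM, VApcMinL over ApcMin (horizontal axis), in each class (vertical axis) for each gene with at least 100 UMIs in that class over both libraries. Bars are 95% intervals for counting error, dotted lines mark 1.5-fold and red points lie beyond it. In subepithelial fibroblast-like cells Inhba and Inhbb lie to the right, at 1.88 and 1.82, and Tgfb2 to the left, at -2.63.

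The clusters did not behave alike. In adventitial-type fibroblast-like cells 3 of the 8 members passed 1.5-fold, beside 10.8% of all genes: Inhba was higher by a ratio of 4.48 (3.79 to 5.32), Inhbb by 1.56 (1.28 to 1.89), and Tgfb2 was lower by 0.613 (0.562 to 0.669). Tgfb2 there reached 91.2 CPM (86.9 to 95.5) in ApcMin and 55.9 CPM (51.9 to 60.1) in VApcMinL. In the Adamdec1 cluster 2 of 7 members passed, beside 9.76% of all genes: Tgfbr1 was higher by 1.56 (1.39 to 1.76) and Tgfb3 lower by 0.662 (0.585 to 0.749). Tgfb3 went the other way in the Pi16 cluster, from 49.9 CPM (46.8 to 53.1) to 68.7 CPM (64.2 to 73.4), a ratio of 1.38 (1.26 to 1.51). In trophocyte-type fibroblast-like cells it was lower in VApcMinL, with a ratio of 0.669 (0.613 to 0.731). Inhba, by contrast, was near its ApcMin level in the Adamdec1 cluster, with a ratio of 1.16 (0.879 to 1.54), and in the cluster of Lpl, Penk and Plau, with 0.713 (0.467 to 1.07).

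Most of the Inhba of the Pi16 cluster in VApcMinL sat in a small group of cells with Wif1, which encodes a secreted Wnt inhibitor and is a marker of subepithelial fibroblasts. Of the 937 cells of this cluster in VApcMinL, 98 had a Wif1 UMI, and they held 372 of the 560 Inhba UMIs (66.4%), at 272 CPM (245 to 301). In ApcMin a Wif1 UMI was found in 1 of 1250 cells. Without the Wif1 cells the cluster stood at 9.60 CPM (8.26 to 11.1) in ApcMin and 16.3 CPM (14.1 to 18.8) in VApcMinL, a ratio of 1.70 (1.38 to 2.09) instead of 4.48, and over all fibroblast-like cells the ratio was 1.44 (1.26 to 1.64), under 1.5-fold. Whether cells with Wif1 differ in number between the genotypes cannot be told from 1 library each. Most markers of the cluster were lower in VApcMinL: Pi16 was at 631 and 307 CPM, Ly6c1 at 544 and 274 CPM and Cd248 at 587 and 281 CPM in ApcMin and VApcMinL, while Cd81 was at 515 and 471 CPM. Cells with a Pi16 UMI after thinning held Inhba at 12.2 and 13.9 CPM, a ratio of 1.14 (0.802 to 1.59), whereas cells without it held 7.49 and 55.8 CPM. These splits were chosen after the values were seen.

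**Figure D3:**
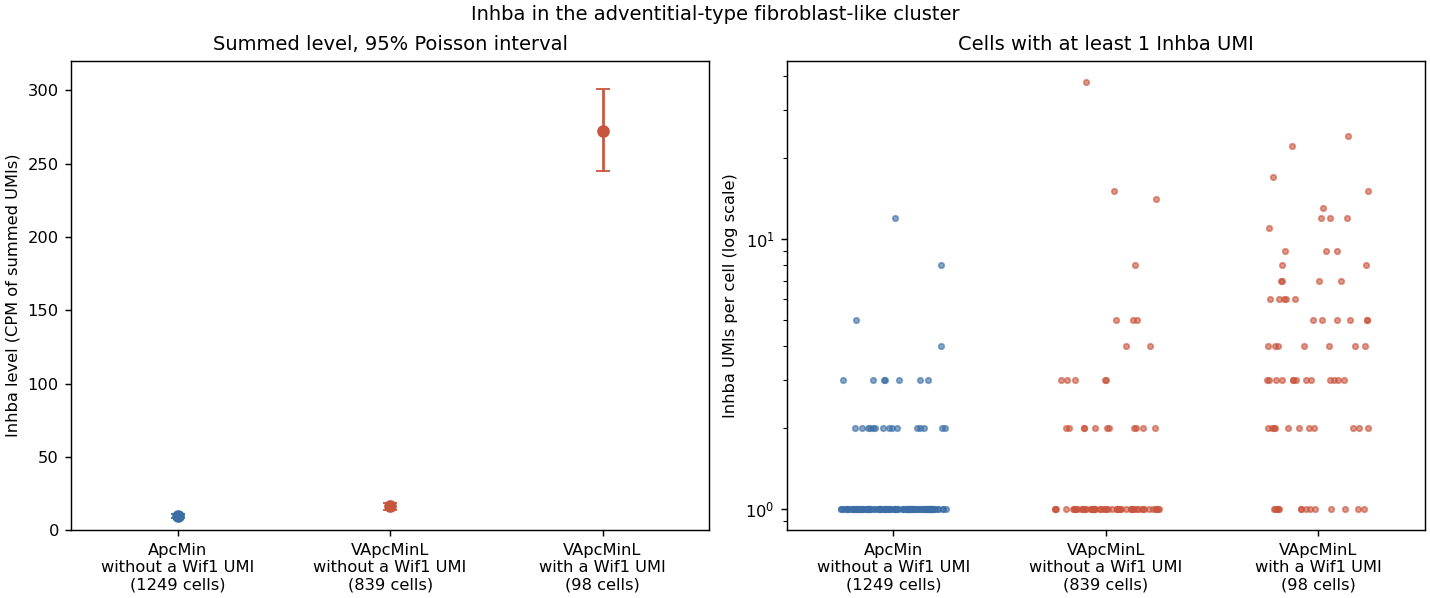
Inhba in the adventitial-type fibroblast-like cluster, split by library and by a Wif1 UMI (the 1 ApcMin cell with Wif1 is not drawn). Left, CPM of summed UMIs with the 95% Poisson interval; right, Inhba UMIs of each cell that has any, on a log axis. The 98 VApcMinL cells with Wif1 stand at 272 CPM, and the other cells at 9.60 CPM in ApcMin and 16.3 CPM in VApcMinL.

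Other genes told the Inhba cells of the cluster apart as well, as a description of cells chosen by Inhba. In VApcMinL, the 85 cells with at least 2 Inhba UMIs held Wif1 at 983 CPM against 24.1 CPM in the 785 cells without Inhba, Notum, an extracellular inactivator of Wnt proteins, at 146 against 3.76 CPM, Nrg1, an ErbB ligand, at 189 against 8.46 CPM, and Thy1 at 535 against 42.9 CPM. Tgfbi, a gene known to be induced by TGF-beta, was at 375 against 60.3 CPM. In ApcMin, the 27 cells with at least 2 Inhba UMIs were led by Saa3 (864 against 2.87 CPM) and Il11 (635 against 8.49 CPM), which came from 2 and 3 cells. Pi16 there was at 804 against 619 CPM, while in VApcMinL it was lower in the Inhba cells, at 149 against 325 CPM. Tgfbi was higher in the Inhba cells of ApcMin too, at 269 against 41.5 CPM, and Epha4, Itgbl1 and Gm13889 were among the leading 15 genes in both libraries.

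Over all fibroblast-like cells of VApcMinL, 123 had a Wif1 UMI. Of these 11 were among the highest doublet scores, against 117 of the 3562 without Wif1, and the part of doublets in what follows was not tested. Beside Inhba, at 236 CPM (214 to 261) against 12.7 CPM (11.6 to 13.9) in the other 3562 cells, they held Inhbb at 29.5 CPM (21.9 to 38.9) against 11.1 CPM (10.1 to 12.2). Tgfb2 was at 84.9 against 84.4 CPM. Tgfbr3 was lower, at 192 CPM (172 to 214) against 467 CPM (460 to 473), and Tgfbr2 at 245 CPM (222 to 269) against 422 CPM (416 to 428). These sets of cells differed in their mix of clusters, whose part in the values was not tested. Within the Pi16 cluster of VApcMinL, cells with at least 2 Inhba UMIs held Tgfb2 at 100 CPM, against 49.4 CPM in cells without Inhba. Inhbb there was at 14.8 against 18.0 CPM. Within the subepithelial cluster of VApcMinL the direction for Inhba was the other: 17 cells with Wif1 held 88.7 CPM (52.6 to 140.2) and 57 without it 151.5 CPM (120.5 to 188). The 123 Wif1 cells held Pdgfra, a defining fibroblast marker, at 1138 CPM against 615 CPM, with 3 UMIs of Ptprc in all.

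Subepithelial fibroblast-like cells numbered 30 and 74. Of the 2024 genes with at least 100 UMIs there, 27.6% passed 1.5-fold, the highest share of the classes compared. All 5 members that reached this minimum passed too. The minimum is on the sum of both libraries, and Inhba (14 and 100 UMIs), Inhbb (24 and 164) and Tgfbr3 (38 and 262) reached it only through VApcMinL. The count of members was therefore partly set by the minimum, and nothing is concluded from it. Tgfb2 was lower in VApcMinL, at 209 CPM (165 to 260, 80 UMIs) in ApcMin and 33.6 CPM (21.8 to 49.6, 25 UMIs) in VApcMinL, while Inhba (ratio 3.68, 2.1 to 6.98), Inhbb (3.52, 2.29 to 5.66), Tgfbr2 (2.49, 2.0 to 3.12) and Tgfbr3 (3.55, 2.52 to 5.14) were higher in VApcMinL. Tgfb1 (24 and 37 UMIs), Tgfb3 (9 and 38) and Tgfbr1 (17 and 53) had too few UMIs for this count. A few cells carried some of these sums: 10 of 14 Inhba UMIs in ApcMin came from 1 cell, and the 10 highest cells held 95% of its Tgfb2 UMIs. The cluster was also made up differently, since Nrg1 was at 1288 and 227 CPM, Sox6 at 284 and 536 CPM, and the Pi16-type markers summed to 571 and 96.8 CPM.

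In endothelial cells no member passed 1.5-fold with all cells kept. Of 6 members tested in blood endothelial-like cells, 0 passed 1.5-fold, beside 13.6% of all genes, and of 5 in lymphatic endothelial-like cells also 0, beside 13.4%. In blood endothelial-like cells the highest ratios were those of Tgfbr2, with 175 and 253 CPM and a ratio of 1.45 (1.23 to 1.71), and Inhbb, with a ratio of 1.37 (1.14 to 1.65). Both depended on a few cells, since without the 3 highest cells of each library they were 1.54 (1.30 to 1.84) and 1.62 (1.31 to 2.01), past 1.5-fold. Tgfb1 had a ratio of 1.01 (0.854 to 1.20). Among lymphatic cells Tgfb2 had the lowest ratio, 0.702 (0.551 to 0.902). The 10 fibroblast markers summed to 7169 and 1915 CPM in blood endothelial-like cells, a difference that was larger than those of the members and whose part in them was not tested.

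Among immune classes, 2 of 6 members passed 1.5-fold in macrophage or other myeloid-like cells, beside 11.8% of all genes, and 0 of 3 in B-like cells, beside 7.27%. In the myeloid class Tgfbr3 reached 22.3 CPM (17.8 to 27.6) in ApcMin and 69.2 CPM (59.1 to 80.6) in VApcMinL, with a ratio of 3.1 (2.37 to 4.08), with both values under the empty droplets. The summed fibroblast markers of this class were at 2799 and 3450 CPM, and its share of free RNA, estimated from immunoglobulin UMIs, was 9.93% and 46.6%. The part of either in the ratio was not tested. When cells were assigned singly from their markers, the log2 ratio was 0.57 instead of 1.63, and without the highest doublet scores it was 2.74. Tgfbr1 had a ratio of 0.670 (0.578 to 0.776), just inside 1.5-fold. In B-like cells Tgfb1, Tgfbr1 and Tgfbr2 had ratios of 1.06 (0.948 to 1.18), 1.02 (0.746 to 1.38) and 0.999 (0.873 to 1.14).

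Inhba in the myeloid class was lower in VApcMinL, at 57.8 CPM (50.4 to 65.9, 220 UMIs) and 14.2 CPM (9.82 to 19.8, 34 UMIs), with a ratio of 0.245 (0.166 to 0.353). This rested on single cells. Of the 271 cells in ApcMin 14 had a UMI, and the highest cell held 152 of the 220 UMIs. Without the 3 highest cells of each library the class stood at 7.26 and 5.65 CPM, a ratio of 0.778 (0.369 to 1.56).

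**Figure D4:**
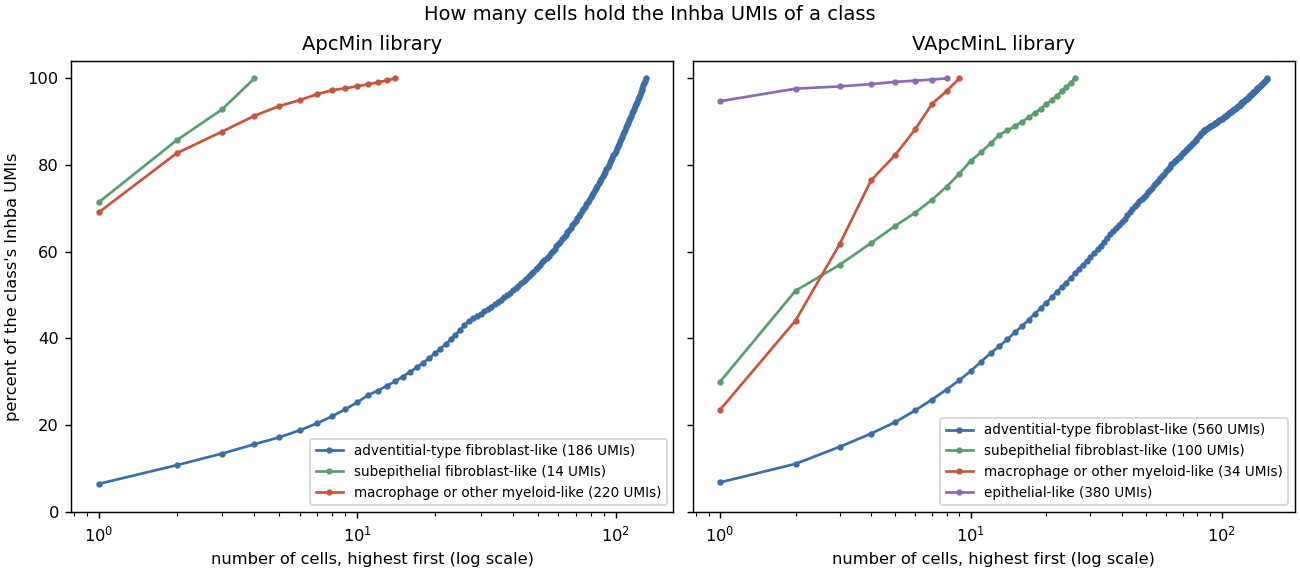
Share of the Inhba UMIs of a class (vertical axis, percent) held by its highest cells (horizontal axis, number of cells on a log axis), by library. The myeloid class of ApcMin and the epithelial-like cells of VApcMinL reach most of their UMIs with 1 cell, 152 of 220 and 360 of 380, whereas the adventitial-type fibroblast-like cluster needs 38 and 22 cells to reach 50% of its UMIs.

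The other genes of the pathway were taken from a list of 52, by role. In fibroblast-like cells 42 had at least 100 UMIs, of which 4 were higher and 3 lower past 1.5-fold (16.7%, beside the 12.7% of all genes), with a median log2 ratio of 0.10 beside 0.01 for all genes. None of the 11 Smads and their inhibitors, the 5 activin and TGF-beta receptors, the 3 activin antagonists and the 2 co-receptors that were measured passed. Among genes known to be induced by TGF-beta, Tagln (40.4 and 79.4 CPM) and Acta2 (41.8 and 66.0 CPM), both contractile genes, were higher and the matrix genes Postn (149.5 and 86.0 CPM) and Fn1 (1021 and 667 CPM) lower, so this group differed in both directions. The 9 smooth muscle markers, which include Tagln and Acta2, summed to 267 and 394 CPM in fibroblast-like cells. Among them Myh11 was at 3.06 and 13.4 CPM. The part of smooth muscle RNA in the contractile genes was not tested. Inha, the alpha subunit that turns activins into inhibins, was at 0.796 and 2.38 CPM, from 37 and 99 UMIs, and Ltbp2 at 4.48 and 7.83 CPM. Fbn1, the fibrillin that anchors the latent complex, was lower, at 1058 and 664 CPM. All these values are sums over fibroblast-like clusters whose mix differed between the libraries, and the part of that mix was not tested. In the Pi16 cluster Tgfbi was at 46.9 and 99.2 CPM and Acvr1b, the activin type I receptor, at 11.9 and 18.3 CPM. In cells of this cluster without Inhba, Tgfbi was at 41.5 and 60.3 CPM. The 85 VApcMinL cells with at least 2 Inhba UMIs held it at 375 CPM, and their part in the difference was not tested.

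In blood endothelial-like cells 3 of 27 list genes were higher and 5 lower past 1.5-fold (29.6%, beside 13.6% of all genes), among them Col3a1 (1270 and 242 CPM) and Col1a1 (418 and 138.5 CPM), collagen genes of fibroblasts that were lower along with the fibroblast markers given above. In lymphatic endothelial-like cells 4 of 20 were higher and 5 lower (45%, beside 13.4%), with Eng, the endothelial co-receptor, at 229 and 362 CPM and Thbs1, an activator of latent TGF-beta, at 299 and 647 CPM. Macrophage or other myeloid-like cells had 1 higher and 2 lower of 24 (12.5%, beside 11.8%), and B-like cells 4 higher and 0 lower of 16 (25%, beside 7.27%), of which 2 were the collagen genes Col1a1 and Col3a1. The fibroblast markers summed to 357 and 720 CPM in B-like cells.

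In the mouse genome build GRCm38, with the GENCODE M21 annotation, all 8 are protein-coding genes. Tgfb1 lies on chromosome 7 (25687002 to 25705077, plus strand), Tgfb2 on chromosome 1 (186622792 to 186705989, minus strand) and Tgfb3 on chromosome 12 (86056745 to 86079041, minus strand). Inhba lies on chromosome 13 (16011851 to 16031621, plus strand) and Inhbb on chromosome 1 (119415465 to 119422248, minus strand). Tgfbr1 lies on chromosome 4 (47353222 to 47414931, plus strand), Tgfbr2 on chromosome 9 (116084293 to 116175360, minus strand) and Tgfbr3 on chromosome 5 (107106570 to 107289629, minus strand).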

How the data were processed

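Both libraries were deposited by the authors as raw UMI counts per gene and droplet barcode with every barcode kept; their processing notes name Cell Ranger 2.1.1 and the GRCm38 (mm10) build, whereas the matrix headers name 3.1.0, and Seurat 3.1.1 was used by the authors downstream. Which version made the matrices was not settled.

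Here cells were integrated (Seurat canonical correlation, 1551 variable genes without the members and the pathway list, 20 components, resolution 0.2) and clusters were named from marker lists, with Python 3.11.15, scipy 1.17.1, Seurat 5.3.0 and R 4.3.3. The members, marker lists and pathway list were chosen with earlier results of these data known, and the scoring rule for names, the setting aside of pancreatic acinar and mast cells within clusters and the name of the T or innate lymphoid class were chosen after seeing the data. Subtypes follow the leading genes. A cluster with markers of both B cells and fibroblasts (49 and 22 cells) stayed unnamed. Doublets were kept, and leaving out the highest Scrublet scores was an alternative. Named genes were the 8 members, pathway genes with at least 100 UMIs in a class over both libraries, and for each member the 3 other genes with the highest correlation among genes with at least 500 UMIs, of which 1 is not reported here; genes of the Inhba cells and Wif1 were named after their values were seen. No p-value was computed, since each genotype had 1 library. Shares of cells were given at full depth or after thinning to 3000 UMIs, which leaves out no cell. The ratio and interval calculation was run on simulated Poisson counts of class sums, the model that the interval assumes. That run does not bear on the spread between cells or mice. Empty droplets were barcode ranks 45000 to 90000. Alternatives were other minima of UMIs and mitochondrial share, doublets left out, classes by each cell's own markers, means over cells, thinned cells and free RNA subtracted.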

Additional observations from a re-analysis of the deposited data

Results flagged for a closer look

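Inhba differed in opposite directions between classes: its log2 ratio of VApcMinL to ApcMin was 2.16 in adventitial-type fibroblast-like cells and 1.88 in subepithelial fibroblast-like cells but -2.03 in macrophage or other myeloid-like cells. The difference between the classes was not tested, since there was 1 library per genotype. Without the 3 highest cells of each library the values were 2.14, 4.44 and -0.36, so that of the myeloid class came within counting error, and that of the subepithelial class then rested on 1 UMI in ApcMin. The adventitial-type value rested mostly on 98 VApcMinL cells with a Wif1 UMI, which held 66.4% of the Inhba UMIs of that cluster. Its cells without Wif1 stood at 9.60 CPM in ApcMin and 16.3 CPM in VApcMinL. Its cells with a Pi16 UMI after thinning differed within counting error, as given above.

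Tgfbr2 also had opposite directions, with a log2 ratio of 0.69 in plasma-like cells, 1.32 in subepithelial fibroblast-like cells and -0.66 in glial or neuronal-like cells, and this was not tested either. The plasma-like value rests on 43 and 58 UMIs at levels under the empty droplets, and it changed sign after thinning (-0.78) and as a mean over cells (-0.14). Without the 3 highest cells of each library the glial or neuronal value was -0.40, within counting error.

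In epithelial-like cells, which the sort was meant to remove and the comparisons above do not use, Inhba stood at 25.5 CPM in VApcMinL, above the 10.3 CPM of its empty droplets, and at 0 UMIs in ApcMin. Of the 380 UMIs 360 came from 1 cell with 354549 UMIs in total, which also held Mmp10, Cxcl1, Ptgs2 and Il11 at 1041, 3221, 750 and 257 CPM against 1.99, 24.1, 8.71 and 0.206 CPM in the other epithelial-like cells of this library. That cell held 547 UMIs of B and 3399 UMIs of epithelial markers, and its doublet score was not among the highest. The part of more than 1 cell in this droplet was not tested.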

How the results depend on the processing

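No paired analysis was possible because there was a single library for either genotype, without replicate numbers in the labels.

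Over 78 gene and class pairs, 660 of 741 alternative ratios stayed within the counting interval of the reported ratio, 74 moved out of it and 7 changed sign. In fibroblast-like cells thinning to 3000 UMIs gave log2 ratios of -0.22 for Tgfb3, 0.99 for Inhba, 1.36 for Inhbb, 0.39 for Tgfbr2 and 0.26 for Tgfbr3, and the mean over cells gave 0.97 for Inhba, 0.39 for Tgfbr2 and 0.25 for Tgfbr3. Among alternatives added after the data were seen, equal weights for the clusters gave -0.074 for Tgfb1, -0.64 for Tgfb2, 1.65 for Inhbb, 0.38 for Tgfbr2 and 0.33 for Tgfbr3, and leaving out cells with a Wif1 UMI gave 0.52 for Inhba and 0.25 for Tgfbr3.

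Signs changed for Tgfbr2 in mesothelial-like cells (0.34 thinned, 1.01 without the 3 highest cells), in plasma-like cells (-0.78 thinned, -0.14 as a mean over cells) and in adventitial-type cells with Pi16 (0.082), and for Tgfb1 in macrophage or other myeloid-like cells with free RNA subtracted (0.33). The cause was not tested.

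With at least 30 UMIs the share of genes past 1.5-fold was 21.7% in blood endothelial-like, 24.8% in lymphatic endothelial-like, 18.6% in macrophage or other myeloid-like and 15.6% in B-like cells, where a minimum of 5000 UMIs gave 12.6%, and 7 and 9 pathway genes passed in the myeloid and B-like classes. Members past 1.5-fold rose from 0 to 1 in blood endothelial-like cells with the highest doublet scores left out or with own markers and a minimum of 1000 UMIs, and in lymphatic endothelial-like cells with a minimum of 5000 UMIs. Without the 3 highest cells of each library, 2 members passed in blood endothelial-like cells, Inhbb (0.70) and Tgfbr2 (0.63 on the log2 scale). Classes of few cells (7 mesothelial-like, 28 glial or neuronal-like and 30 subepithelial fibroblast-like in ApcMin) limit what the depth can resolve.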
